A study of Mus musculus with 12 samples.

Results

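The 7 genes described here encode colony-stimulating factors and their receptors: the ligands *Csf1* and *Il34*, their shared receptor *Csf1r*, the chains of the receptor for CSF2 (*Csf2ra*, *Csf2rb* and its close copy *Csf2rb2*), and *Csf3r*. They were taken by gene symbol from the gene counts of 12 RNA libraries, and all 7 were found among 55401 gene identifiers and passed the filter on low counts. The study removed the histone deacetylase HDAC3 from microglia and asked how their transcriptome responded to stroke. Cells gated as CD45int CD11b+ were sorted from male mice after 60 min of left middle cerebral artery occlusion (transient focal cerebral ischemia, tFCI) on day 3, or after Sham surgery. Each of the 4 groups had 3 libraries, and each library pooled 3 to 4 hemispheres, so that p-values measure the spread between pools.

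WT-Sham and WT-tFCI mice were Cx3cr1wt/wt Hdac3loxP/loxP, that is, with both Hdac3 alleles floxed and no CreER. miKO-Sham and miKO-tFCI mice were Cx3cr1CreER/wt Hdac3loxP/loxP, with the tamoxifen-inducible recombinase in 1 allele of the fractalkine receptor gene *Cx3cr1*, which is active in microglia and also in other mononuclear phagocytes. Tamoxifen was given for 5 days at 6 to 8 weeks of age, and surgery followed at least a month later. The miKO groups therefore differ from WT by the loss of HDAC3 and by 1 *Cx3cr1* allele, and these cannot be told apart here.

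CSF1R is a receptor tyrosine kinase on which microglia depend for survival throughout life. It has a pair of ligands, CSF1 and IL-34, of which IL-34 in the brain comes mostly from neurons and CSF1 mostly from glia, microglia included. The receptor for CSF2 (GM-CSF) pairs a specific alpha chain, CSF2RA, with the common beta chain CSF2RB, which also serves IL-3 and IL-5; mice carry an additional beta chain, CSF2RB2, that serves IL-3 only. CSF3R is the receptor for CSF3 (G-CSF) and is best known from neutrophils.

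Between 7697864 and 9452222 counts lay on genes per library (median 8226429.5). miKO-Sham replicates 1 and 2, which the labels place in different sequencing batches, were closer to each other than any other pair of replicates, with a chi-square of 2.82 per degree of freedom against 19.2 to 76.6 for the other 7 pairs across batches. miKO-Sham replicates 2 and 3, both labelled batch 2, were at 40.8, against 3.65 to 12.9 for these replicates of the other groups. Whether the batch label of miKO-Sham replicate 2 is right was not tested, and within-batch values that use miKO-Sham rest on it. The batch term of the model, and with it the fitted differences and p-values, also uses this label. So do the batch-adjusted correlations. The names of the deposited files of replicates 1 and 2 also carry the same library number, and whether both came from the same pool of cells was not tested. They differed by more than sampling noise and were kept apart as 2 of the 3 miKO-Sham libraries, so the SD and p-values of this group may rest on fewer than 3 independent pools, and results that rest on miKO-Sham were also computed without each of them and with both summed as 1 library. In the 3 comparisons that use miKO-Sham, none of these changed the call of a member. *Hdac3*, the targeted gene, lay between 34.98 and 54.0 CPM (counts relative to library totals scaled by TMM) in the 6 WT libraries and between 20.9 and 36.0 in the 6 miKO libraries. It was called lower in miKO in both Sham (log2 fold change −0.81 ± 0.16, SE) and tFCI (−0.71 ± 0.16). The call in tFCI was lost without WT-tFCI replicate 2 (adjusted p = 0.0705), and whole-gene counts do not separate the deleted part. All 10 microglial marker genes were detected, with summed levels of 24132 to 31785 CPM in WT-Sham, 20726 to 25731 in miKO-Sham, 16983 to 18850 in WT-tFCI and 8317 to 16248 in miKO-tFCI. Of these markers, 7 fell after tFCI in WT and all 10 in miKO, against 11.7% and 13.9% of all genes. In Sham, 4 of them were called lower in miKO and 1 higher, against 6.8% and 8.58% of all genes. In tFCI, 5 of them were called lower in miKO, against 4.71% of all genes. *Cx3cr1* is 1 of the 10. Fewer cells of a type and less RNA per cell cannot be told apart in such bulk libraries.

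Per length of exon, *Csf1r* stood far above the other members in every group, at 1251 ± 218 CPM per kilobase in WT-Sham, 1344 ± 58.7 in miKO-Sham, 809 ± 61.5 in WT-tFCI and 644 ± 206 in miKO-tFCI (SD, n = 3 in each). *Csf3r* was second, at 157 ± 5.94 CPM per kilobase in WT-Sham and 72.3 ± 7.44 in miKO-tFCI, followed by *Csf2ra* in every group. In WT-Sham the order went on with *Csf2rb* (13.7 ± 2.18), *Csf2rb2* (7.08 ± 0.768), *Csf1* (5.38 ± 0.231) and *Il34* (0.151 ± 0.218). After tFCI, *Csf1* moved up to the fourth place in both genotypes, at 44.7 ± 9.20 CPM per kilobase in WT-tFCI and 26.8 ± 8.78 in miKO-tFCI. The libraries of neighbours in this order did not overlap in any group, except *Csf1* and *Csf2rb* in miKO-tFCI. The level of *Csf1r* per length was 232 times that of *Csf1* in WT-Sham and 179 times in miKO-Sham, but 18.1 times in WT-tFCI and 24.0 times in miKO-tFCI. Taking the longest transcript in place of all exons moved these levels by more than 1 SD in 14 of 28 cases.

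**Figure D1:**
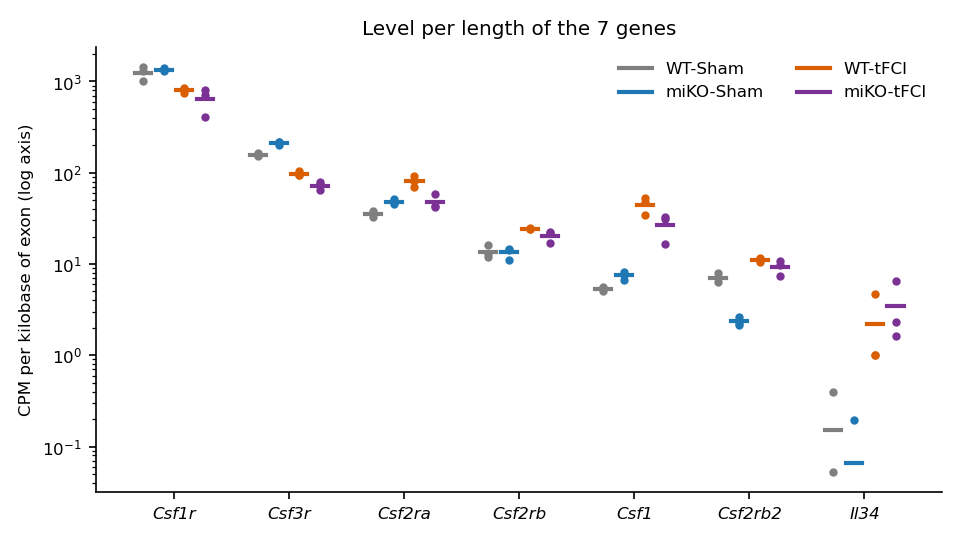
Level per length of the 7 genes, in CPM per kilobase of exon on a log axis, by gene and group; points are libraries, short bars the group means (n = 3), and the 3 Sham libraries without an Il34 count have no point on the log axis. Csf1r lies highest in all groups, at 1251 CPM per kilobase in WT-Sham, and Csf1 rises past Csf2rb after tFCI.

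For each member, differences were tested with edgeR across all 16451 genes that passed the filter, and a gene was called where its log2 fold change exceeded 0.58 in size with a Benjamini-Hochberg adjusted p below 0.05. After tFCI in WT, 5 members were called higher, against 20.9% of all genes, and 2 lower, against 11.7%. In miKO, 4 members were called higher after tFCI (21.9% of all genes) and 2 lower (13.9%). Between the genotypes, no member was called higher in miKO-Sham than in WT-Sham (8.58% of all genes) and 1 was called lower (6.8%). In tFCI, no member was called higher in miKO (4.08% of all genes) and 2 were called lower (4.71%). For the interaction, which asks whether tFCI acted differently in the genotypes and was called on the adjusted p alone, 1 member was positive (1.25% of all genes) and 3 were negative (2.57%). With 7 genes no share is read from these counts, and the genes are described one by one.

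**Figure D2:**
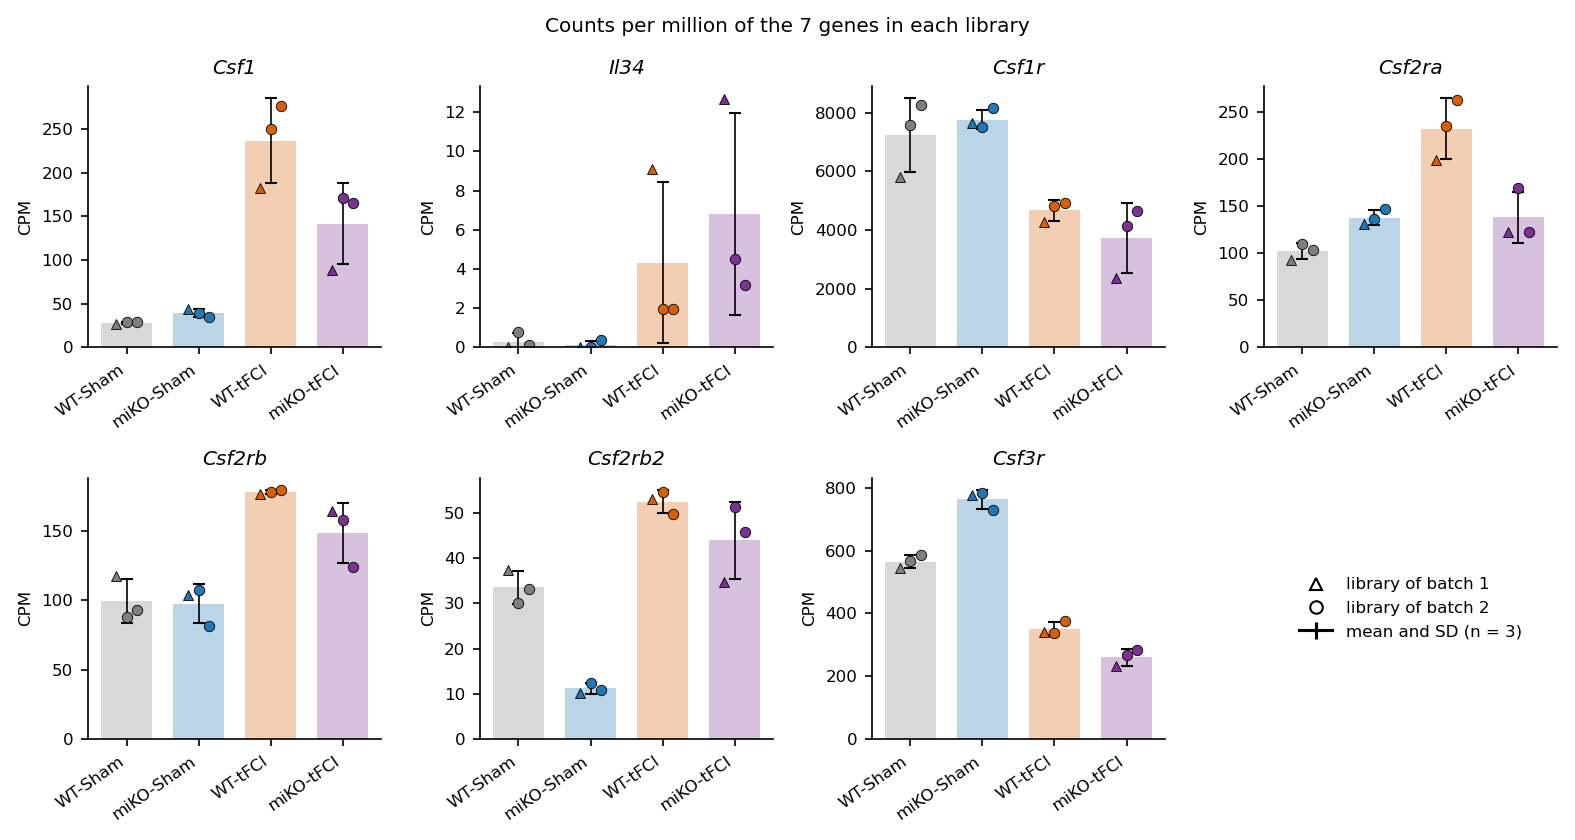
CPM of the 7 genes by group, each panel with its own linear axis from 0; bars are means, error bars SD (n = 3), triangles libraries of batch 1 and circles libraries of batch 2. Csf1 and Csf2ra are highest in WT-tFCI, Csf2rb2 is lowest in miKO-Sham, and the Il34 libraries of batch 1 stand above those of batch 2 after tFCI.

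*Csf1* (chr3:107741048-107760469, minus strand, GRCm38), the ligand that sustains microglia and drives their proliferation, rose after tFCI in both genotypes. Its levels were 27.0, 28.9 and 29.3 CPM in WT-Sham and 182, 249.6 and 276 CPM in WT-tFCI. The groups were far apart, with a log2 fold change of 3.03 ± 0.20 (SE) and an adjusted p of 5.16e-08, which is an 8.20-fold rise. In miKO-Sham *Csf1* lay at 43.6, 39.9 and 35.2 CPM, and in miKO-tFCI at 88.1, 171 and 165 CPM. All 3 stroke libraries were again above all Sham libraries, and the rise was 3.45-fold (log2 1.79 ± 0.19, adjusted p = 7.42e-06).

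The order of the genotypes was opposite in Sham and in tFCI. In Sham, every miKO library exceeded every WT library, but the log2 difference of 0.49 did not pass the test (95% interval 0.08 to 0.91, adjusted p = 0.0985), and it was 0.22 without miKO-Sham replicate 1 and 0.56 without replicate 2. In tFCI, every miKO library lay below every WT library, and *Csf1* was called lower by 0.76 on the log2 scale (SE 0.18, adjusted p = 0.0183). This call was lost without WT-tFCI replicate 2 (−0.77, adjusted p = 0.0693), without WT-tFCI replicate 3 (−0.68, 0.101), without miKO-tFCI replicate 1 (−0.56, 0.0679), and without the batch term (−0.74, 0.0885). The within-batch differences were −1.05 in batch 1 and −0.64 in batch 2. The smaller rise in miKO gave an interaction of −1.25 ± 0.27 (adjusted p = 0.0179), with −1.73 within batch 1 and −1.0 within batch 2; its adjusted p was between 0.0581 and 0.0694 when WT-Sham or WT-tFCI replicate 2 or 3 was left out and 0.0847 without the batch term.

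*Il34* (chr8:110741829-110805924, minus strand), the other ligand of CSF1R, was near the limit of detection in Sham. It had 0, 7 and 1 counts in WT-Sham and 0, 0 and 3 counts in miKO-Sham, where 3 counts correspond to 0.317 to 0.39 CPM. After tFCI it had 76, 17 and 16 counts in WT (9.10, 1.96 and 1.95 CPM) and 123, 36 and 26 counts in miKO (12.7, 4.52 and 3.21 CPM). All stroke libraries exceeded all Sham libraries, and those of batch 1 were the highest of each stroke group. From the pooled counts, the rise was 14.1-fold in WT (exact 95% interval 6.88 to 33.4, for counting error only) and 58.1-fold in miKO (19.6 to 284). WT-tFCI replicate 1 held 76 of the 109 pooled counts, and the log2 change in WT was 5.28 within batch 1 and 1.89 within batch 2.

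Both rises were called by edgeR (adjusted p = 0.00815 in WT and 8.61e-04 in miKO), but the fitted size depends on the few Sham counts and on the batch 1 libraries. In WT the call was lost without WT-tFCI replicate 1 (adjusted p = 0.051) and in batch 2 alone (0.0737). The genotypes did not differ detectably at this depth in tFCI (log2 0.73, 95% interval −0.70 to 2.16) and overlapped. Markers of vascular and neural cells were also highest in the batch 1 stroke libraries. The 5 endothelial markers summed to 125 CPM in WT-tFCI replicate 1 against 39.9 and 39.7 in replicates 2 and 3, and to 185 CPM in miKO-tFCI replicate 1 against 70.0 and 65.6. The 4 mural markers summed to 34.5 CPM against 8.66 and 8.41 in WT-tFCI, and to 65.9 CPM against 28.4 and 34.9 in miKO-tFCI. The 7 neuronal markers summed to 1.85 to 2.88 CPM in WT-Sham and to 10.7, 5.19 and 3.66 CPM in WT-tFCI, highest in the library with the most *Il34*. In miKO they were at 11.5 to 15.7 CPM in Sham, where *Il34* was nearly absent, and at 10.6 to 11.7 CPM in tFCI. The part of other cells in the *Il34* counts was not tested.

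*Csf1r* (chr18:61100598-61132149, plus strand) fell after tFCI in both genotypes. Its levels were 5821, 7579 and 8262 CPM in WT-Sham and 4269, 4811 and 4937 CPM in WT-tFCI, which did not overlap (log2 −0.61 ± 0.18, adjusted p = 0.013). The change lay just past the fold threshold. In miKO-Sham *Csf1r* was at 7634, 7508 and 8147 CPM, and in miKO-tFCI at 2376, 4144 and 4638 CPM. The groups were again separate, with the lowest value in the batch 1 library, and the fall was by 1.11 on the log2 scale (SE 0.18, adjusted p = 2.13e-04).

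Both Sham groups overlapped (log2 0.13, 95% interval −0.25 to 0.50), and so did both tFCI groups (−0.37, −0.74 to 0.01). An interaction was not detected (−0.49, 95% interval −1.03 to 0.04, adjusted p = 0.329), and its within-batch values were −1.24 in batch 1 and −0.14 in batch 2. The fall of *Csf1r* went with that of the microglial markers named above, and their share in it was not tested. Exons of *Csf1r* share 873 bases with *Hmgxb3* on the other strand, which received 7825 counts in all against 580708 on *Csf1r* (1.35%).

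*Csf2ra* (chr19:61223957-61228429, minus strand), the ligand-binding alpha chain of the GM-CSF receptor, rose after tFCI in WT but not detectably in miKO. It was at 93.5, 110.2 and 104 CPM in WT-Sham and at 199, 236 and 263 CPM in WT-tFCI. The groups did not overlap, and the rise was 2.26-fold (log2 1.18 ± 0.14, adjusted p = 1.21e-05). In miKO-Sham it was at 131, 136 and 147 CPM, and in miKO-tFCI at 122, 169.5 and 123 CPM. These groups overlapped, and the log2 change of −0.0029 had a 95% interval of −0.29 to 0.29.

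The interaction for *Csf2ra* was −1.18 ± 0.19 (adjusted p = 0.00307), with −1.19 within each batch, and it was called under all 22 alternative settings. miKO-tFCI lay below WT-tFCI in every library, by 0.75 on the log2 scale (SE 0.13, adjusted p = 0.00318), a call that also held in all 23 alternatives. In Sham, every miKO library was above every WT library, with a log2 difference of 0.43 (adjusted p = 0.0386) that stayed under the fold threshold. Scaling by library totals alone reduced it to 0.16 (adjusted p = 0.458), and it was 0.38 without miKO-Sham replicate 1 (adjusted p = 0.13).

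*Csf2rb* and *Csf2rb2* lie 20030 bases apart on chromosome 15, at chr15:78325752-78353847 on the plus strand and chr15:78282507-78305721 on the minus strand. Their coding sequences were identical at 2503 of 2628 aligned bases (95.2%). Reads of this study were 150 bases long at each end, and only 3.58% of the 150-base windows of the *Csf2rb* transcript occurred unchanged in *Csf2rb2*. The following stretch of 90 bases from the third exon of each gene, printed from GRCm38 with the 4 differing bases in capitals, shows how alike they are and how few bases a read must carry to be assigned.
Csf2rb, chr15:78336348-78336437, plus strand: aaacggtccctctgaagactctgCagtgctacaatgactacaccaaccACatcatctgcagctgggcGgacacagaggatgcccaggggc
Csf2rb2, chr15:78297013-78297102, minus strand: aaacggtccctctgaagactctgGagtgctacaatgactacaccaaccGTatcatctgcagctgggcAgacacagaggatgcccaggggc

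Despite this likeness, both genes moved differently. *Csf2rb*, the common beta chain, was at 118, 87.8 and 92.9 CPM in WT-Sham, and at 177, 178 and 179.6 CPM in WT-tFCI. The rise was 1.80-fold without overlap (log2 0.85 ± 0.14, adjusted p = 3.35e-04). In miKO-Sham it was at 104, 107 and 81.2 CPM and in miKO-tFCI at 165, 158 and 124 CPM. The rise of 0.61 ± 0.14 (log2, adjusted p = 0.00355) only just passed the fold threshold and dropped below it in 10 of 22 alternatives, among them the omission of miKO-Sham replicate 3 (0.51). A difference of *Csf2rb* between the genotypes was not detected in Sham (−0.02, 95% interval −0.33 to 0.28) or in tFCI (−0.27, −0.57 to 0.04), although the 3 miKO-tFCI libraries all lay below those of WT-tFCI.

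*Csf2rb2*, the beta chain for IL-3, was the member that differed most between the genotypes without stroke. It was at 37.4, 30.1 and 33.1 CPM in WT-Sham and at 10.3, 12.5 and 10.8 CPM in miKO-Sham. Every miKO library was far below the lowest WT library, and *Csf2rb2* was called lower by 1.59 on the log2 scale (SE 0.17, adjusted p = 1.35e-05). The difference was −1.55 without miKO-Sham replicate 1, −1.66 without replicate 2, and −1.56 with these 2 libraries summed as 1. After tFCI the genotypes overlapped, at 53.1, 54.7 and 49.7 CPM in WT and 34.7, 51.4 and 45.9 CPM in miKO (log2 −0.26, 95% interval −0.60 to 0.07).

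The rise after tFCI was accordingly 1.56-fold in WT (log2 0.64 ± 0.16, adjusted p = 0.00488) and 3.92-fold in miKO (1.97 ± 0.17, 9.54e-07). *Csf2rb2* was the only member with a positive called interaction, of 1.33 ± 0.23 (adjusted p = 0.00465), with 1.23 within batch 1 and 1.33 within batch 2. The same 3 miKO-Sham libraries enter the difference in Sham, the rise in miKO and the interaction, so these are not independent. In WT the rise fell under the fold threshold without WT-Sham replicate 2 (0.51), WT-Sham replicate 3 (0.57) or WT-tFCI replicate 2 (0.58).

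The share of the counts of both genes that fell on *Csf2rb2* does not depend on the scaling between libraries. It was 24.1%, 25.5% and 26.3% in WT-Sham, 8.99%, 10.4% and 11.7% in miKO-Sham, 23.1%, 23.5% and 21.7% in WT-tFCI, and 17.4%, 24.6% and 27.0% in miKO-tFCI. Only miKO-Sham stood apart from the other groups, and miKO-tFCI replicate 1 lay between. The Wilson 95% intervals of the miKO-Sham libraries reached at most 14.3%, and those of WT-Sham began at 21.9%. When the counts of both genes were summed, a difference between the genotypes in Sham was not detected (log2 −0.29, adjusted p = 0.179) and the interaction was 0.03. Most of the summed counts in every library were on *Csf2rb*, so the sum cannot decide on the difference of *Csf2rb2*.

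**Figure D3:**
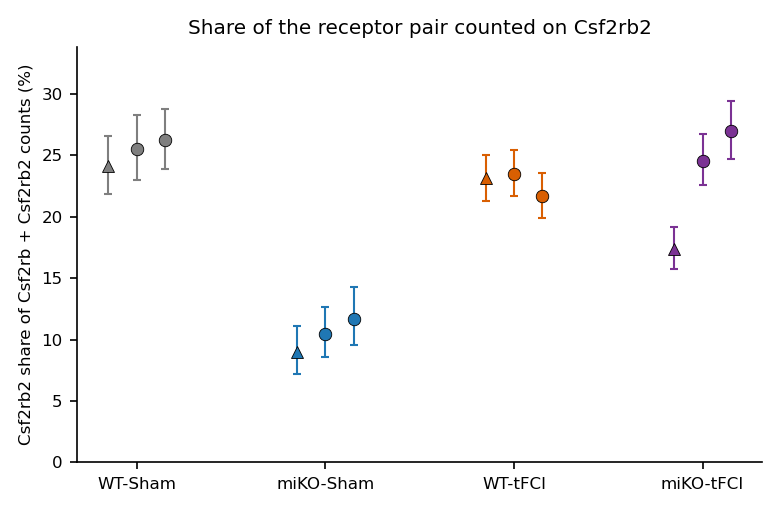
Share of the counts on Csf2rb and Csf2rb2 together that fell on Csf2rb2, in percent, by library; error bars are Wilson 95% intervals (counting error only), triangles batch 1 and circles batch 2. The 3 miKO-Sham libraries lie between 8.99% and 11.7%, below all 9 other libraries.

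*Csf3r* (chr4:126024550-126044440, plus strand), the G-CSF receptor, fell after tFCI in both genotypes and further in miKO. It was at 544, 566 and 587 CPM in WT-Sham and at 342, 338 and 375 CPM in WT-tFCI. The fall was by 0.68 on the log2 scale (SE 0.12, adjusted p = 5.61e-04) without overlap. In miKO-Sham it was at 778, 784 and 729.7 CPM and in miKO-tFCI at 231, 269 and 283 CPM. This was a fall by 1.55 (SE 0.13, adjusted p = 5.36e-07), to 0.341 of the Sham level.

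The interaction was −0.87 ± 0.17 (adjusted p = 0.0115), with −1.08 within batch 1 and −0.76 within batch 2, and its adjusted p rose to 0.0518 without WT-Sham replicate 2 and to 0.0581 without WT-tFCI replicate 3. The order of the genotypes was opposite in Sham and in tFCI: miKO-Sham was above WT-Sham in every library (log2 0.44, adjusted p = 0.0225) and miKO-tFCI below WT-tFCI in every library (−0.43, 0.0379). Both differences stayed under the fold threshold and were not called. The difference in Sham was 0.16 (adjusted p = 0.33) when libraries were scaled by their totals. Neutrophils carry this receptor, and 9 of the 10 neutrophil markers could be tested. Their summed levels were 845, 78.1 and 50.8 CPM in WT-Sham, 344 to 377 in miKO-Sham, 155 to 216 in WT-tFCI and 706 to 984 in miKO-tFCI. In miKO-tFCI, where *Csf3r* was lowest, these sums were above every library of the other groups except WT-Sham replicate 1. That library had the lowest *Csf3r* of the Sham libraries (544 CPM). In miKO-Sham the sums were above WT-Sham replicates 2 and 3 but below replicate 1, and *Csf3r* was above every WT-Sham library. Of the 9 tested markers, 6 were called higher in miKO-tFCI than in WT-tFCI, against 4.08% of all genes. The part of neutrophils in the *Csf3r* counts was not tested.

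**Figure D4:**
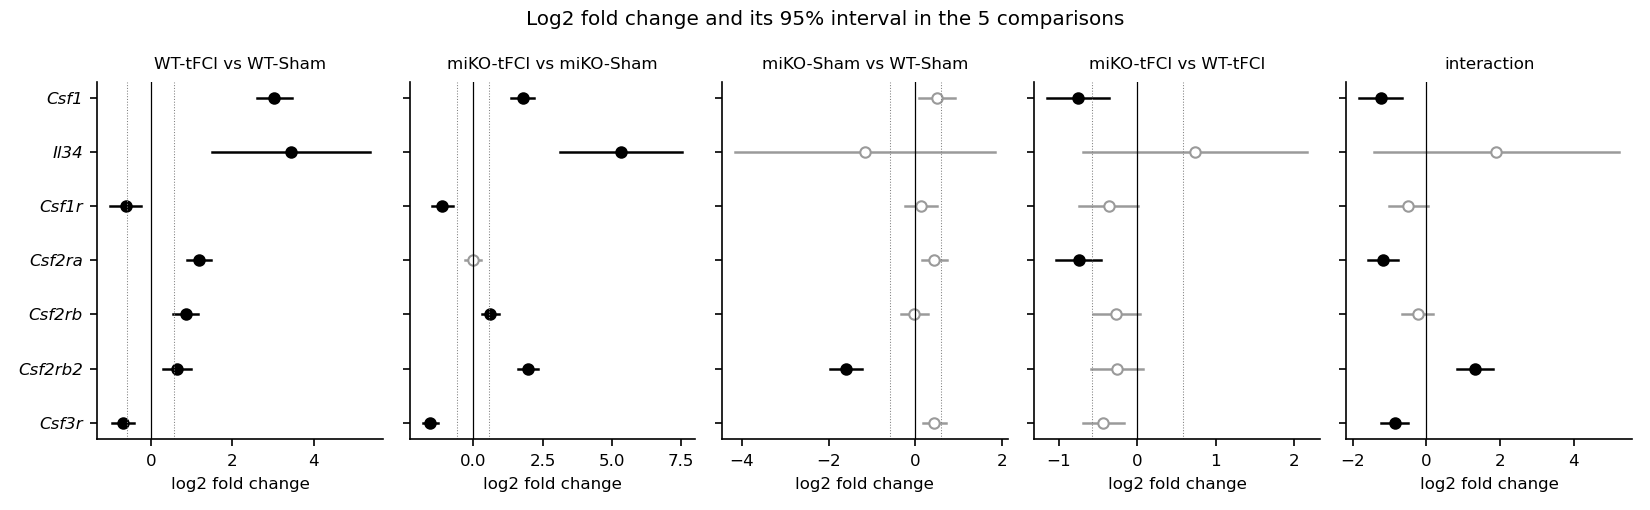
Log2 fold change (points) with its 95% interval (lines) for the 7 genes in the 5 comparisons, each panel with its own axis. Fold changes are from edgeR, and intervals were derived from its test statistic. Filled black points were called and open grey ones were not. Dotted lines mark a log2 fold change of −0.58 and 0.58, which the interaction does not use. Csf2rb2 alone is called in miKO-Sham vs WT-Sham, at −1.59, and the interaction is called for Csf1, Csf2ra, Csf3r and Csf2rb2.

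For the 4 members with a called interaction, which changed to unequal extents in the genotypes, the promoters are shown from RefSeq (GRCm38.p6), 250 bases before to 50 after the start of the gene; those of *Csf2rb*, *Il34* and *Csf1r* are not. They were searched on both strands for GAGGAA (PU.1 and other ETS factors, present in 28.3% of 32851 promoters), TGANTCA (AP-1, 7.81%), TGACGTCA (the cyclic AMP response element, 1.79%), TGTGGT (RUNX, 16.8%) and the NF-kB motif (8.46%). Matches are in capitals, and GAGGAA on the other strand reads TTCCTC.
Csf1, chr3:107760420-107760719, minus strand: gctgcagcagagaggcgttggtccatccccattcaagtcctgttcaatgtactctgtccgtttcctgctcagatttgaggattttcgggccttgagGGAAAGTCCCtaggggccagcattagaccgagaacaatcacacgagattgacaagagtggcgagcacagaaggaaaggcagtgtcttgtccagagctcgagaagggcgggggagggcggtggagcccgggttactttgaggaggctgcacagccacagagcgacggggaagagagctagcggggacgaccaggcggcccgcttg
Csf2ra, chr19:61228369-61228668, minus strand: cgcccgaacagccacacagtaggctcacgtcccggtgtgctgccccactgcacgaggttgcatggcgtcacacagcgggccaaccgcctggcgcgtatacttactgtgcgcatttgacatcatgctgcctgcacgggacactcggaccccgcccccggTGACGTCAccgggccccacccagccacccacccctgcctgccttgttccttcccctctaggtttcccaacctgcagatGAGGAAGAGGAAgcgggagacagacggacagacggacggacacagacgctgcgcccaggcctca
Csf2rb2, chr15:78305672-78305971, minus strand: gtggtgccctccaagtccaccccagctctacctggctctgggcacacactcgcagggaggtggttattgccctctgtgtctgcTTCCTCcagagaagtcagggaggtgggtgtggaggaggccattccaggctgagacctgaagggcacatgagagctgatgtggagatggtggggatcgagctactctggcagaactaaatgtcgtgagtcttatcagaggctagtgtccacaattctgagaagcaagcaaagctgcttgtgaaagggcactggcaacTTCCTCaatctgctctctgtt
Csf3r, chr4:126024409-126024708, plus strand: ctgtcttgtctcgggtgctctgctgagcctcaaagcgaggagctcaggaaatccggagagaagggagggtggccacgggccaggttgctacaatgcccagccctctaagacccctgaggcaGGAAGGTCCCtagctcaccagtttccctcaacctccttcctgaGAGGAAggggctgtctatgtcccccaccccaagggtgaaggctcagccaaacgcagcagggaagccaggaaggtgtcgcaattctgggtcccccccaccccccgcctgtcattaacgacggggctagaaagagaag
The *Csf2ra* promoter held the cyclic AMP response element 92 bases before the start and GAGGAA at 14 and 8 bases before it. *Csf2rb2* held GAGGAA 167 bases before and 30 bases after the start, and *Csf3r* at 86 bases before it. An NF-kB match lay 154 bases before the start of *Csf1* and 129 bases before that of *Csf3r*. No AP-1 or RUNX match was present in the 4 windows, and a match is a description of letters only.

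Of the other ligands and receptors of the CSF2, IL-3, IL-5 and CSF3 family, 6 genes were listed. The ligand genes *Csf2*, *Il3* and *Il5* and the receptor *Il5ra* had at most 4 counts per group and were not tested. *Il3ra*, the alpha chain of the IL-3 receptor, was at 1.44 ± 1.5 CPM in WT-Sham and 11.5 ± 2.2 in WT-tFCI (SD, n = 3), and rose by 3.16 on the log2 scale (SE 0.54, adjusted p = 3.72e-04). In miKO it rose from 1.66 to 7.34 CPM (log2 1.97 ± 0.54, adjusted p = 0.00905). *Csf3*, the ligand of CSF3R, was also called higher after tFCI in miKO, with 40 counts in 3 libraries against 2 in Sham; in WT it had 9 counts against 3.

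The related receptor kinases of the same class and their ligands (6 genes) included 4 called higher after tFCI in WT and 5 in miKO. The shares of all genes were 20.9% and 21.9%. The median log2 change was 2.63 in WT and 3.17 in miKO, against 0.02 and 0.03 over all genes. Between the genotypes, 1 was higher and 1 lower in miKO-Sham, against 8.58% and 6.8% of all genes. In miKO-tFCI 2 were higher, against 4.08% of all genes. These genes are known from other cells: *Pdgfra* from oligodendrocyte precursors and fibroblasts, *Pdgfrb* from mural cells, *Flt3* from dendritic cells and *Kit* from mast cells and progenitors. *Pdgfra* went from 0.251 to 10.4 ± 9.0 CPM in WT and from 0.683 to 27.3 ± 11.6 CPM in miKO (SD, n = 3). *Kitl*, the ligand of KIT, was also lower in miKO-Sham. It was at 18.6 ± 2.9 CPM in WT-Sham and 3.15 ± 1.6 in miKO-Sham (log2 −2.55 ± 0.29, adjusted p = 1.96e-05). It rose to 11.1 CPM in miKO-tFCI (log2 1.80, adjusted p = 2.11e-04) and was at 16.4 CPM in WT-tFCI, where it was not called against WT-Sham (log2 −0.18, adjusted p = 0.596), with an interaction of 1.986 (adjusted p = 0.00918).

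Of 25 genes of signalling just below CSF1R, 5 rose and 5 fell after tFCI in WT, against 20.9% and 11.7% of all genes. In miKO 3 rose and 10 fell, against 21.9% and 13.9% of all genes. The median log2 changes were −0.11 in WT and −0.25 in miKO, against 0.02 and 0.03 over all genes. The interaction was called positive for 1 of the 25 and negative for 2, against 1.25% and 2.57% of all genes. The Src-family kinase *Fgr* rose in both, from 3.65 to 25.2 CPM in WT (log2 2.75 ± 0.22) and from 10.6 to 41.3 CPM in miKO (1.92 ± 0.20). *Pik3cg*, a catalytic subunit of PI3-kinase, fell in both, by 0.75 in WT and 1.32 in miKO. Among those that fell in miKO were *Inpp5d*, the lipid phosphatase SHIP1, by 0.97, and, chosen after their values were seen, the kinases *Syk* (0.69) and *Lyn* (0.60). In Sham, 5 of the 25 were called higher in miKO and 2 lower, against 8.58% and 6.8% of all genes. The adaptor *Dok2*, a brake on receptor kinases, was at 2.19 ± 0.84 CPM in WT-Sham and 20.2 ± 2.6 in miKO-Sham (log2 3.20 ± 0.33, adjusted p = 8.89e-06), and *Fyn* was lower by 1.43. After tFCI, *Dok2* rose in WT (log2 2.53) but was not called in miKO, with an interaction of −2.22 (adjusted p = 0.00918). *Fyn* rose after tFCI by 0.75 in WT and 2.42 in miKO, with an interaction of 1.67 (adjusted p = 0.0209). In tFCI, *Dok2* (0.98) and *Fgr* (0.69) were higher in miKO and *Pik3r1*, the regulatory subunit of PI3-kinase, was lower (−0.89).

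In the JAK-STAT arm of the CSF2 and CSF3 receptors (13 genes), 3 rose and 2 fell after tFCI in WT. In miKO 2 rose and 1 fell. The shares of all genes were 20.9% and 11.7% in WT and 21.9% and 13.9% in miKO, and no share is read from these counts. The feedback inhibitor *Socs2* and the kinase *Pim1*, both known targets of STAT5, rose in both genotypes. *Socs2* went from 1.68 to 8.19 ± 2.0 CPM in WT and from 0.982 to 14.0 ± 10.0 CPM in miKO (SD, n = 3). *Pim1* went from 10.8 to 44.2 ± 1.4 CPM in WT and from 9.72 to 31.7 ± 19.6 CPM in miKO. Both varied widely between the miKO-tFCI libraries. *Cish*, another such target, rose in WT (log2 1.40, adjusted p = 0.0155) but was not called in miKO (−0.19, adjusted p = 0.742). *Socs1* fell in WT (log2 −0.99, adjusted p = 0.0296) and was not called in miKO (−0.19, adjusted p = 0.685). *Sh2b3*, the adaptor LNK, fell in both, by 0.84 and 1.03. The survival gene *Bcl2l1* was higher in miKO in Sham (log2 0.81) and in tFCI (0.65), and *Socs3* was lower in miKO in tFCI (−0.62, from 662 to 440.4 CPM). After tFCI itself, *Bcl2l1* was not called in either genotype (−0.08 in WT and −0.23 in miKO).

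Of 10 transcription factors known to act on *Csf1r*, 2 rose and 2 fell after tFCI in WT, against 20.9% and 11.7% of all genes. In miKO 2 rose and 6 fell, against 21.9% and 13.9% of all genes. The median log2 change was −0.21 in WT and −0.74 in miKO, against 0.02 and 0.03 over all genes. Among those that fell in miKO were *Cebpa* (by 1.63), *Fli1* (1.01) and, outside the 4 largest changes and chosen after their values were seen, *Irf8* (0.93), *Runx1* (0.77) and *Spi1* (0.70), which encodes PU.1. *Fli1* also fell in WT, by 0.80. None of the 10 had a called interaction, against 1.25% of all genes positive and 2.57% negative. In Sham, 2 of the 10 were called higher in miKO, against 8.58% of all genes, among them *Cebpa* (log2 1.03). In tFCI no factor was called, against 4.08% of all genes higher and 4.71% lower.

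The last list held the shedding machinery of CSF1 and CSF1R and the other receptors of IL-34 (5 genes). Of these, 3 rose after tFCI in each genotype and none fell. Of all genes, 20.9% rose and 11.7% fell in WT, and 21.9% and 13.9% in miKO. In miKO, 1 was higher and 1 lower in Sham, against 8.58% and 6.8% of all genes. In tFCI 1 was higher in miKO, against 4.08% of all genes. *Rhbdf2*, which carries the sheddase ADAM17 to the surface of myeloid cells, was at 15.2 ± 2.2 CPM in WT-Sham, 38.2 ± 3.8 in miKO-Sham and 42.1 ± 7.4 in WT-tFCI. It was called higher after tFCI in WT (log2 1.46 ± 0.18) and higher in miKO in Sham (1.35 ± 0.18), and its interaction was −1.32 (adjusted p = 0.00827). The related gene *Rhbdf1* was lower in miKO-Sham (−1.40 ± 0.25). *Sdc1* and *Ptprz1*, which bind IL-34, rose after tFCI in both genotypes, *Sdc1* from 9 to 170 counts in WT and from 6 to 421 in miKO.

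Across all 6 lists, 61 of 65 genes were tested. Of these, 18 rose and 9 fell after tFCI in WT, and 17 rose and 17 fell in miKO. As a share, 44.3% and 55.7% of them were called, against 32.6% and 35.8% of all genes. Between the genotypes, 23.0% of them were called in Sham and 13.1% in tFCI, against 15.4% and 8.79% of all genes. The interaction was called positive for 2 of the 61 and negative for 3, a share of 8.20% against 3.82% of all genes.

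**Figure D5:**
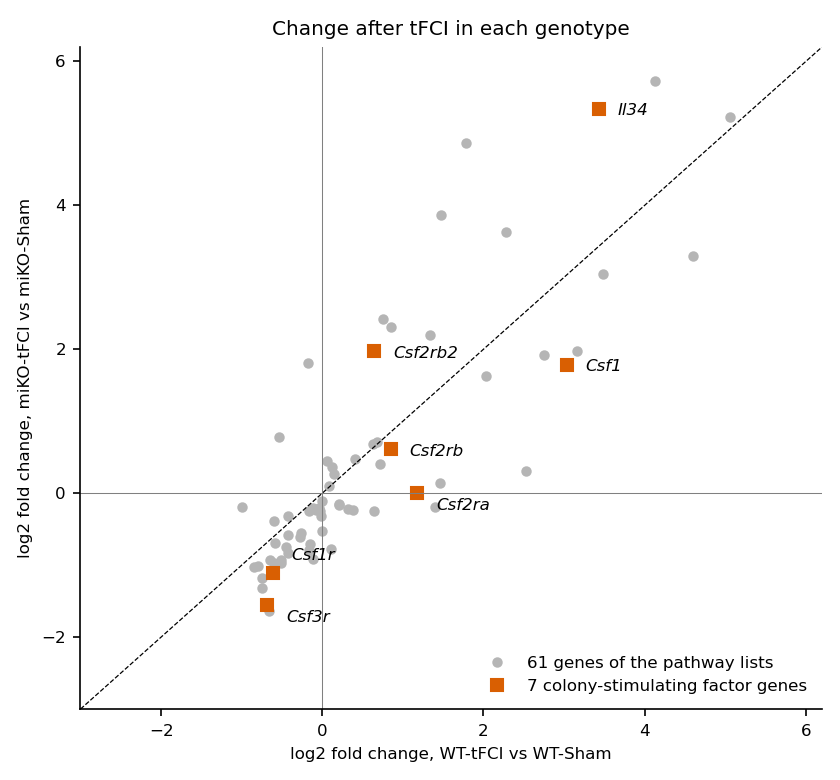
Log2 fold change after tFCI in WT (horizontal axis) and in miKO (vertical axis) for the 7 colony-stimulating factor genes (squares) and the 61 tested genes of the pathway lists (points); the dashed line marks equal changes. Csf1 and Csf2ra lie below the line, at 3.03 and 1.18 in WT against 1.79 and −0.0029 in miKO, and Csf2rb2 lies above it, at 0.64 against 1.97.

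The genes whose batch-adjusted log2 CPM followed each member most closely over the 12 libraries were sought among 9318 genes with a mean of at least 10 CPM; the coefficients mostly reflect differences between 4 groups and carry no p. For *Csf1r* they were *Il10ra* (r = 0.99), *Tle4* (0.99) and *Tfe3* (0.98). *Csf1* was closest to *Lig1* (0.99), *Ddost* (0.99) and *Ncapd2* (0.99); *Lig1* (DNA ligase I) and *Ncapd2* (a condensin subunit) act in DNA replication and chromosome condensation. For *Csf2ra* they were *Fuca1* (0.95), *Ncaph2* (0.94) and the cytokine gene *Osm* (0.93), and for *Csf2rb* *Atpif1* (0.98), *Nucks1* (0.97) and *Tk1* (0.97). *Csf2rb2* was closest to *Il15ra* (0.97), *Rtn3* (0.97) and *Tnfrsf23* (0.97), and *Csf3r* to *Git2* (0.99), *Hps4* (0.98) and *Col15a1* (0.98). Among the members themselves, *Csf1r* and *Csf3r* were the most alike (r = 0.95), followed by *Csf1* and *Csf2rb* (0.93).

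Markers of cells other than microglia also differed between groups. The 8 markers of blood monocytes and macrophages summed to 39.9 to 105 CPM in WT-Sham and 68.5 to 194 in miKO-Sham. In WT-tFCI they summed to 126 to 252 CPM and in miKO-tFCI to 482 to 719. Of the 8, 4 were called higher in miKO-tFCI than in WT-tFCI, against 4.08% of all genes. The 7 astrocyte markers summed to 112 to 197 CPM in Sham and to 169 to 589 CPM in tFCI, and the highest sums of each stroke group were in the batch 1 libraries, in which *Csf1* was lowest. The 6 border-associated macrophage markers lay between 43.8 and 195 CPM in Sham and between 122 and 462 CPM in tFCI. The 7 dendritic cell markers summed to 14.2 to 21.9 CPM in Sham, to 114, 20.0 and 20.8 CPM in WT-tFCI and to 336, 49.4 and 52.2 CPM in miKO-tFCI, so that the batch 1 stroke libraries, with the lowest *Csf1* and *Csf1r* of their groups, stood highest. At most 9.19 CPM were summed over the 5 markers of mast cells and basophils, and at most 6.50 over the 6 of T and NK cells, of which *Ncr1* was at 0 everywhere. The part of these cells in the members' changes was not tested beyond these values.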

How the data were processed

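Sorted CD45int CD11b+ cells were profiled by SMART-Seq v4 and paired-end sequencing of 2 × 150 bases. The labels name FastQC 0.11.9, Trim Galore, HISAT2 2.2.1, SAMtools and HTSeq 1.99.2 with mm10 and GRCm38.p6. The deposited values are raw counts per gene made by the authors, without normalization. The lines for reads on no gene (61.5% to 69.3% of each library) stayed out of library sizes and tests. The labels name a CytoFLEX SRT for sorting, the paper's methods a Cytek Aurora. Whether strand was used in counting is not given in the sources used here.

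Symbols, positions and lengths came from GENCODE M21 (GRCm38), which held 55141 of 55401 identifiers. The edgeR package (4.0.16, in R 4.3.3) filtered the genes (filterByExpr), scaled the libraries (TMM) and ran the quasi-likelihood test in a model of group and batch over the 12 libraries, with Benjamini-Hochberg adjustment over 16451 genes. A call needed an adjusted p below 0.05 together with a log2 fold change over 0.58 in size (for the interaction, the adjusted p alone). Intervals are 95%. CPM used TMM-scaled totals, within-batch differences are of log2 CPM with a prior count of 2, and level per length divided CPM by the union of exons. DESeq2 1.42.0 and limma 3.58.1 (batch adjustment) served alternatives and plots. The edgeR script was tested on simulated counts. Groups and batches came from the labels (replicate 1 is batch 1, replicates 2 and 3 are batch 2).

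The members, lists, tests and alternatives were chosen with earlier results of these data known. Named were the 7 members, *Hdac3*, up to 4 genes of each pathway list by size of fold change among those called in a comparison, the 3 genes most alike to each member above 10 CPM, and genes that overlap a member. The summing of miKO-Sham replicates 1 and 2 was added after the data were seen. Counting intervals and the floor of 3 counts cover counting error only. Some genes of the pathway lists are counted but not reported here by name.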

Additional observations from a re-analysis of the deposited data

Results flagged for a closer look

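The response to tFCI differed between genotypes for 4 members by the test of the interaction itself (edgeR, miKO change minus WT change, log2): *Csf1* (−1.25), *Csf2ra* (−1.18), *Csf3r* (−0.87) and *Csf2rb2* (1.33). *Csf1* rose less in miKO, *Csf2ra* rose in WT and changed by −0.0029 in miKO, *Csf3r* fell further in miKO, and *Csf2rb2* rose further in miKO from a lower Sham level. The interactions of *Csf2ra* and *Csf2rb2* were called under every alternative in which the gene was tested on its own (22 and 21), that of *Csf3r* in 20 of 22 and that of *Csf1* in 17 of 22. With 3 samples per group, single samples could not be examined as outliers.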

How the results depend on the processing

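The number of members called was 7 after tFCI in WT (6 to 7 when 1 library was left out) and 6 in miKO (5 to 6). For miKO-Sham vs WT-Sham it was 1 (1 to 2 with 1 library left out), 3 without a fold threshold and 0 with *Csf2rb* and *Csf2rb2* summed. For miKO-tFCI vs WT-tFCI it was 2 (1 to 2), and 1 without the batch term. The interaction was called for 4 members (2 to 4). Of 792 log2 fold changes of members under alternatives, 745 kept direction and call, 28 lost the call and 1 gained it. The 18 that changed sign were uncalled differences near 0 or on few counts. *Csf1r* in miKO-Sham vs WT-Sham was −0.15 with library totals, −0.025 in batch 2 only and −0.033 to 0.23 without single libraries. *Csf2ra* in miKO-tFCI vs miKO-Sham was 0.022 with DESeq2, 0.022 with RLE factors, 0.12 with library totals, 0.067 with at least 10 counts in every library, 0.0016 without the batch term, 0.019 in batch 2 only, and −0.14 to 0.082 without single libraries. *Csf2rb* in miKO-Sham vs WT-Sham was 0.048 in batch 2 only and −0.13 to 0.078 without single libraries, and its interaction 0.027 when summed with *Csf2rb2*. *Il34* without single libraries ranged from −4.87 to 1.35 in miKO-Sham vs WT-Sham and from −0.59 to 5.61 for the interaction. The cause was not tested. Scaling by library totals moved the median of all genes by −0.27 in miKO-Sham vs WT-Sham, −0.10 in miKO-tFCI vs WT-tFCI, 0.12 in miKO-tFCI vs miKO-Sham and 0.17 for the interaction. The share of calls that were higher then went from 55.8% to 25.8%, from 46.4% to 31.6%, from 61.2% to 70.9% and from 32.8% to 51.1%. Whether replicate numbers pair the samples could not be decided. Same-numbered deviations correlated from −0.59 to 0.15 after batch adjustment, above 0.1 in 1 of 18 pairs. Batch 1 holds only replicate 1 of each group, so the adjustment itself shapes the replicate 1 values. As measured, the correlations ran from −0.06 to 0.67, above 0.1 in 11 of 18 pairs, where batch and pairing cannot be told apart. With the replicate block, 7, 6, 1, 2 and 4 members were called in the 5 comparisons, which changed no member's call. Depth limits *Il34* above all, with 11 counts in the 6 Sham libraries.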
